A study of Mus musculus with 12 samples.

Results

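The comparison described here sets KI:KO hearts against ErbB2 KI hearts, that is, hearts that lack the nuclear receptor ERRα (gene Esrra) on a background of reduced ErbB2 against hearts with reduced ErbB2 alone. Its members are all 22180 mouse genes to which at least 1 row of the array table was assigned without ambiguity, measured on 3 KI:KO and 3 ErbB2 KI arrays out of 12 in the series. The other 6 arrays, 3 from ERRα KO and 3 from WT hearts, were used to estimate the spread and to read the same ERRα allele on the wild-type background. ErbB2 KI mice carry a knocked-in ErbB2 cDNA that is expressed below the normal level, ERRα KO mice lack Esrra in the whole body, and KI:KO mice were obtained by crossing these lines. All animals were male, 15 weeks old and on the FVB background, and the arrays of a genotype are labelled as biological replicates (n = 3 each). Because both alleles act in every cell of the animal and whole-heart RNA was used, fewer cells of a type and less RNA per cell cannot be told apart in any of the values below.

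ERRα is an orphan nuclear receptor that works with PGC-1 coactivators on genes of mitochondrial oxidation, and the adult heart, which relies on fatty acids for most of its ATP, expresses it abundantly. ErbB2 is a receptor tyrosine kinase that pairs with ErbB4 to relay neuregulin signals in cardiomyocytes, and hearts with too little of it dilate. The comparison therefore reads what the absence of ERRα adds to a heart whose ErbB2 signal is already low.

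Esrra (chr19:6910977-6922048 of GRCm38.p6) had log2 values of 6.21, 6.17 and 6.36 on KI:KO arrays, against 7.54, 7.46 and 7.67 on ErbB2 KI arrays. It fell by 1.31 ± 0.10 on the log2 scale (SE, limma), which was 2.48-fold and without overlap (adjusted p = 5.95e-05), and signal from the remaining part of the transcript was not separated here. Erbb2 (chr11:98412484-98437716) had values of 5.97, 5.81 and 5.64 in KI:KO and 5.74, 5.94 and 5.61 in ErbB2 KI hearts, a difference of 0.05 ± 0.13 (adjusted p = 0.916), while the WT arrays lay at 6.56, 6.39 and 6.47, above all 6. The log2 values are RMA values, in which probes of a gene are summarised after background correction and quantile normalisation, so a difference of 1 is a 2-fold difference and levels are not compared between genes.

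Medians over all rows of the table lay between 4.578 and 4.650, which RMA normalisation draws together, and the 6 arrays correlated with each other at 0.9844 to 0.9927. Neither value measures the quality of the arrays or of the RNA. The cardiomyocyte markers averaged 12.18 to 12.25 on KI:KO arrays and 12.33 to 12.35 on ErbB2 KI arrays, and 3 of the 14 were called lower in KI:KO hearts (limma, adjusted p below 0.05, which was met by 1.69% of all genes in that direction). With an array left out this number was 1 without ErbB2 KI replicate 1, ErbB2 KI replicate 3 or KI:KO replicate 1 and 2 or 3 otherwise. Replicates 1 and 3 of KI:KO stood apart in particular gene groups. KI:KO replicate 1 had the highest fibroblast and matrix values (a mean of 10.15 over the fibroblast markers, against 9.79 and 9.61 in the other KI:KO and 9.36 to 9.53 in the ErbB2 KI hearts). KI:KO replicate 3 had a value of 8.38 for Slc4a1, the anion exchanger of red blood cells, against 5.73 and 5.66 in the other KI:KO hearts and 5.48 to 5.66 in ErbB2 KI hearts.

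In KI:KO hearts, 493 genes were higher and 374 were lower than in ErbB2 KI hearts (called by the same limma test), which was 2.22% and 1.69% of all genes and 3.91% together. The median difference over all genes was -0.01 on the log2 scale. Among called genes the median was 0.70 for the rises and -0.55 for the falls, and 103 rises and 33 falls were at least 2-fold. In 1 called gene, the matricellular thrombospondin gene Thbs1 (9.20, 9.10 and 7.88 in KI:KO and 7.05, 7.88 and 7.03 in ErbB2 KI hearts), the arrays of the groups overlapped, while 20.5% of all genes had arrays that did not overlap. When each of the 6 arrays was left out in turn, the rises numbered 237 (without ErbB2 KI replicate 1) to 519 (without KI:KO replicate 3), and the falls 164 (without ErbB2 KI replicate 1) to 320 (without KI:KO replicate 3). Without ErbB2 KI replicate 2 there were 309 rises and 194 falls, without ErbB2 KI replicate 3 there were 314 and 225, and leaving out KI:KO replicate 1 gave 214 falls. A core of 209 higher (0.942%) and 130 lower genes (0.586%) was called with all arrays and again in all of those 6 fits, with no overlap of arrays. The leading genes named below were taken from this core.

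**Figure D1:**
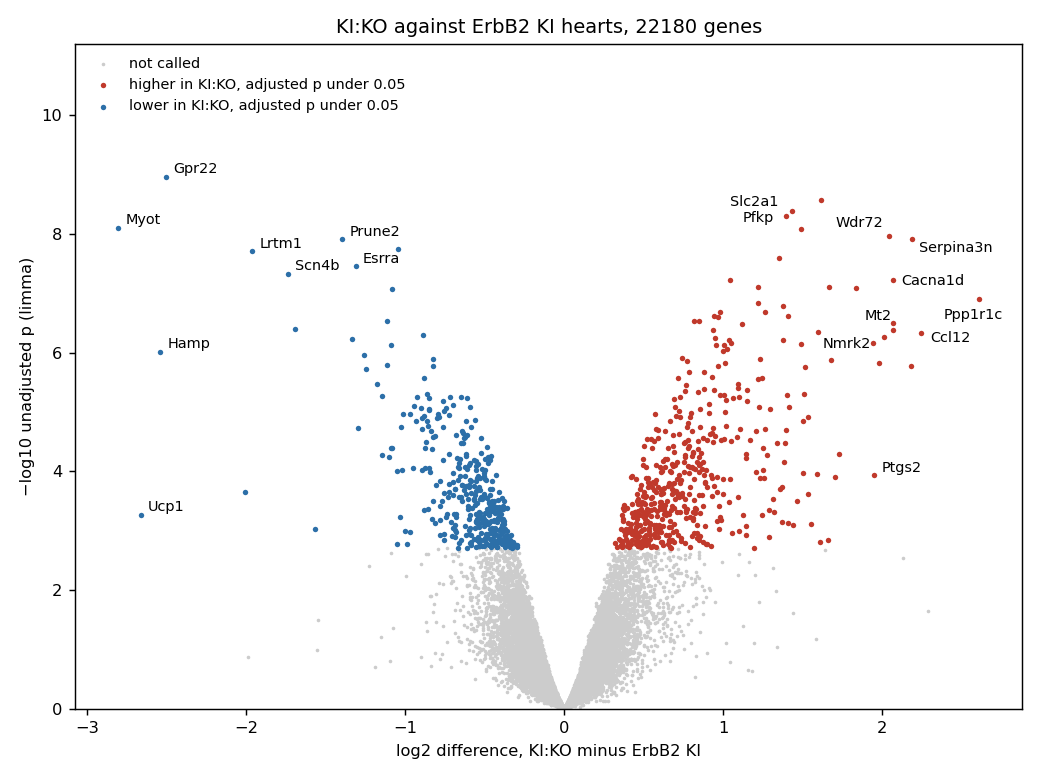
Each point is 1 gene, with the log2 difference between KI:KO and ErbB2 KI hearts on the x axis and the −log10 of the unadjusted limma p on the y axis. The 493 rises reach 2.61 (Ppp1r1c) and the 374 falls reach -2.80 (Myot).

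The largest rise was that of Ppp1r1c, a regulatory inhibitor subunit of protein phosphatase 1 (chr2:79707780-79818546). It had log2 values of 6.28, 7.45 and 6.61 in KI:KO hearts, against 4.06, 4.14 and 4.30 in ErbB2 KI hearts. The difference was 2.61 ± 0.23, or 6.11-fold (adjusted p = 0.000131), and all KI:KO arrays were above all ErbB2 KI arrays, as the choice of the 15 leading rises required. Of the 15, 3 encode CC chemokines, which draw monocytes and other leukocytes into tissue. Ccl12 had 6.55, 6.25 and 6.24 in KI:KO and 4.45, 3.50 and 4.37 in ErbB2 KI hearts (difference 2.24 ± 0.23, adjusted p = 0.000269). Ccl9 rose by 2.07 ± 0.20 and Ccl6 by 1.98 ± 0.22. Ms4a4a (1.84 ± 0.16) and Ms4a6d (1.70 ± 0.30), which encode membrane proteins found largely on macrophages, were in the same group of leading rises.

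Serpina3n, a secreted serine protease inhibitor of the acute-phase response, had values of 11.25, 11.08 and 10.67 in KI:KO hearts and 8.75, 8.82 and 8.86 in ErbB2 KI hearts, a rise of 4.56-fold with an adjusted p of 3.04e-05. Mt2, a metal-binding metallothionein, had 11.66, 11.75 and 11.19 against 9.23, 9.57 and 9.58 (difference 2.07 ± 0.21). For both genes the 3 KI:KO values lay closer to each other than to any ErbB2 KI value. Ptgs2, the inducible cyclooxygenase that begins prostaglandin synthesis, rose by 1.95 ± 0.35 with a wide spread among the KI:KO hearts, 7.03, 7.68 and 5.86, against 4.54, 5.12 and 5.06 in ErbB2 KI hearts. Nr4a3, an orphan nuclear receptor of the immediate-early class, rose by 1.73 ± 0.28.

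Metabolic and transport genes made up most of the remaining leading rises. Car2, a cytosolic carbonic anhydrase, had 7.86, 8.18 and 8.64 in KI:KO and 6.39, 5.60 and 6.15 in ErbB2 KI hearts (4.53-fold, adjusted p = 0.000582). Nmrk2, the muscle nicotinamide riboside kinase that makes NAD+, had 9.08, 8.70 and 8.04 against 6.78, 6.54 and 6.45 (4.04-fold). Pipox, a peroxisomal sarcosine and pipecolate oxidase, rose 3.84-fold. Cacna1d, the pore subunit of the Cav1.3 L-type calcium channel known from pacemaker and atrial cells, had 6.72, 6.86 and 6.94 in KI:KO and 4.85, 4.98 and 4.49 in ErbB2 KI hearts (4.19-fold, adjusted p = 8.36e-05). Wdr72 rose 4.13-fold, with every KI:KO array at 6.80 or above and ErbB2 KI arrays at 4.65 to 5.10.

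The largest fall was that of Myot, which encodes myotilin, an actin-crosslinking protein of the Z-disc. Its log2 values were 6.11, 6.97 and 6.66 in KI:KO hearts, against 9.24, 9.51 and 9.40 in ErbB2 KI hearts, a difference of -2.80 ± 0.20 (6.98-fold lower, adjusted p = 3.04e-05). Hamp, the hormone hepcidin that closes the iron exporter ferroportin, had 8.94, 8.57 and 8.66 in KI:KO and 10.90, 11.53 and 11.35 in ErbB2 KI hearts (-2.54 ± 0.28, adjusted p = 0.000408). Gpr22, an orphan G protein-coupled receptor of the heart, had 5.97, 5.97 and 5.83 against 8.44, 8.25 and 8.59, and gave the smallest p of these falls (-2.50 ± 0.15, adjusted p = 2.42e-05). The choice of the 15 leading falls required that no array of one group reached the range of the other.

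Lrtm1, a leucine-rich transmembrane protein, fell by 1.96 ± 0.15 on the log2 scale, with KI:KO arrays at 8.42, 9.12 and 8.69 and ErbB2 KI arrays at 10.70, 10.60 and 10.82. Scn4b, the beta-4 subunit of the voltage-gated sodium channel, had 5.23, 5.03 and 5.39 in KI:KO and 7.04, 6.72 and 7.10 in ErbB2 KI hearts (3.33-fold lower, adjusted p = 7.46e-05). Efnb3, a membrane-bound ephrin ligand, fell by 1.69 ± 0.17 and Prune2 was 2.63-fold lower. Receptors for 2 circulating peptides were in this group: Agtr1a, the type 1 angiotensin II receptor (-1.33 ± 0.14), and Aplnr, the apelin receptor (-1.17 ± 0.14). The group was completed by Esrra itself, the thin-filament capping protein gene Tmod4 (-1.24 ± 0.14), the lipid droplet gene Cidea (-1.15 ± 0.15), and Klhdc8a, Gm5532 and Cpxm2, which lay between -1.29 and -1.14.

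**Figure D2:**
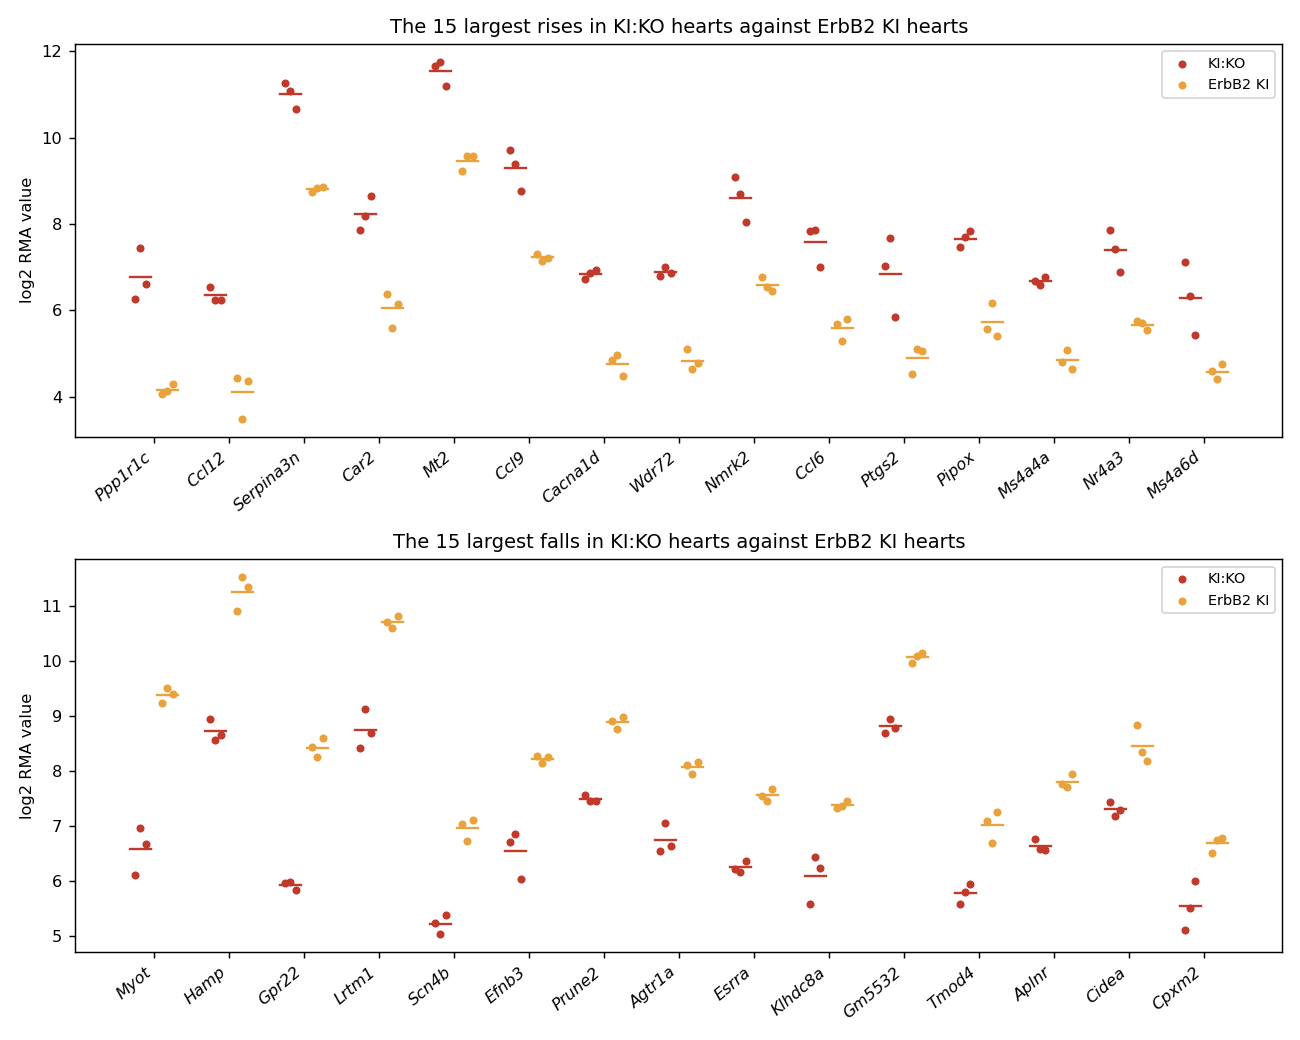
Log2 RMA values (y axis) of the 15 largest rises and the 15 largest falls among genes called in every fit, with 1 point per array and a line at the group mean, KI:KO to the left of ErbB2 KI for each gene. The KI:KO and ErbB2 KI arrays do not overlap for any of the 30 genes, which was a condition of their choice.

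ERR family receptors are known to bind the sequence AAGGTCA, and more tightly its extended form TNAAGGTCA, so promoters of the genes tested were searched for both on either strand. The windows ran from 250 bases before to 50 bases after the gene start (RefSeq, GRCm38.p6), and 16990 genes had one. AAGGTCA was present in the promoter windows of 14 of 277 genes called lower (5.05%) and 24 of 401 called higher (5.99%), beside 794 of all genes (4.67%). The extended form was present in 0 of 277 lower and 9 of 401 higher genes (2.24%), beside 200 of all genes (1.18%). A match in a window of this size is a description of the reference sequence, and binding outside the window was not examined.

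Stretches of 8 of these promoters, picked by hand from those with a match, are shown as examples and do not stand for the shares above. Genes of mitochondria and the sarcomere among them were lower in KI:KO hearts. A pacemaker channel, a kinase, a mitochondrial creatine kinase and a chemokine gene were higher. Each stretch is written in the direction of the gene with the match in capitals, as AAGGTCA or TNAAGGTCA where it lies on the gene strand and as the reverse complement where it lies on the opposite strand.
Acadm, lower, chr3:153944861-153944893, minus strand: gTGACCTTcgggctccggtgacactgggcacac
Sirt5, lower, chr13:43365345-43365401, plus strand: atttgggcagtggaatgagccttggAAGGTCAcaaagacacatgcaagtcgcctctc
Twnk, lower, chr19:45005515-45005571, plus strand: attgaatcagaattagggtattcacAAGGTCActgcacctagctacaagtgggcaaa
Ankrd23, lower, chr1:36536528-36536584, minus strand: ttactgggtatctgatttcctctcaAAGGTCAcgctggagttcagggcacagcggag
Hcn2, higher, chr10:79716441-79716499, plus strand: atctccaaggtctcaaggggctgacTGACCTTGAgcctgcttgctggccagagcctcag
Sgk1, higher, chr10:21985975-21986033, plus strand: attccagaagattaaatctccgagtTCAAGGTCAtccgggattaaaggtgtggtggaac
Ckmt1, higher, chr2:121357572-121357628, plus strand: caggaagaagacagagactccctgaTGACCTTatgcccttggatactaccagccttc
Ccl6, higher, chr11:83593144-83593200, minus strand: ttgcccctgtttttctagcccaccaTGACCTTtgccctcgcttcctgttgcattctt
The match began 249 bases before the annotated start in Acadm, at the edge of the window, and 3 bases before it in Ankrd23. Sgk1 carried the extended form at 2 of its annotated starts. Sirt5, Ankrd23 and Sgk1 were chosen for this display after their values were seen. Sirt5, the mitochondrial lysine desuccinylase, had 6.92, 7.21 and 7.07 in KI:KO hearts against 7.53, 7.52 and 7.57 in ErbB2 KI hearts. Its call was lost without any ErbB2 KI array or without KI:KO replicate 1 (adjusted p of 0.0504 to 0.0623). Twnk, the mitochondrial DNA helicase, had 6.91, 6.96 and 6.79 against 7.27, 7.42 and 7.27, and Ankrd23, a titin-associated ankyrin repeat protein, 11.45, 11.52 and 11.07 against 11.88, 11.85 and 11.89. Both kept their call only without KI:KO replicate 2 (adjusted p of 0.0504 to 0.0886 and of 0.0729 to 0.122 in the other fits).

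The 6 ERRα KO and WT arrays gave a reading of the same allele in other animals, with no array in common. In ERRα KO hearts 253 genes (1.14%) were higher and 268 (1.21%) lower than in WT hearts. Of the genes called in KI:KO against ErbB2 KI hearts, 465 of the 493 rises and 340 of the 374 falls had the same sign in ERRα KO against WT hearts, 92.8% together, beside 58.6% of all genes. The median ERRα KO minus WT difference was 0.37 over the rises and -0.35 over the falls. The genes called in the same direction in both comparisons numbered 294, which was 33.9% of those called in KI:KO against ErbB2 KI hearts and 56.4% of those called in ERRα KO against WT hearts. Over all genes the 2 sets of differences correlated at 0.40 (Pearson, across genes, which are not independent, on arrays normalised together).

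Among the leading genes a first set differed by similar amounts on both backgrounds. Ppp1r1c was higher by 2.61 in KI:KO against ErbB2 KI hearts and by 2.52 in ERRα KO against WT hearts, and the pairs were 2.07 and 2.27 for Cacna1d, 2.05 and 2.27 for Wdr72, and 1.94 and 2.24 for Pipox. The falls of Myot (-2.80 and -3.08), Gpr22 (-2.50 and -2.78), Lrtm1 (-1.96 and -2.05) and Scn4b (-1.74 and -2.26) belonged here too. A second set had a large difference in KI:KO against ErbB2 KI hearts and a value that missed the threshold in ERRα KO against WT hearts. It held Ccl12 (2.24 and 0.39), Ccl9 (2.07 and 0.31), Ccl6 (1.98 and 0.60), Ptgs2 (1.95 and 0.11), Ms4a4a (1.84 and 0.47), Ms4a6d (1.70 and 0.34) and, among the falls, Hamp (-2.54 and -0.69).

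The difference between backgrounds was tested directly with an interaction term, and 2 genes passed (0.00902% of all genes tested, with 1565 at an unadjusted p under 0.05). Ddit4, a stress-induced inhibitor of mTORC1, had 7.56, 7.48 and 7.86 in KI:KO hearts against 6.76, 6.47 and 6.36 in ErbB2 KI hearts, a rise of 1.10 ± 0.14. Its values were 6.29, 6.64 and 6.24 in ERRα KO and 6.85, 6.86 and 6.93 in WT hearts, a difference of -0.49 ± 0.14 (adjusted p = 0.115), and the interaction was 1.59 ± 0.20 (adjusted p = 0.0495). Kcnt2, a sodium-activated potassium channel (chr1:140245657-140614045), did not differ detectably between KI:KO (7.29, 7.17 and 7.38) and ErbB2 KI hearts (7.29, 7.32 and 7.02). It was at 7.16, 7.36 and 7.49 in ERRα KO hearts and at 4.12, 4.06 and 4.46 in WT hearts, so the WT arrays alone stood apart (interaction -3.05 ± 0.19). With each of the 12 arrays left out in turn, Kcnt2 passed in all 12 fits and Ddit4 in 4, those without ERRα KO replicate 2, ErbB2 KI replicate 1, ErbB2 KI replicate 3 or KI:KO replicate 3 (adjusted p of 0.0209 to 0.191 over the 12 fits). For the second set above the interaction term missed the threshold, with adjusted p of 0.158 for Ccl9 and Ms4a4a, 0.159 for Ccl12, 0.319 for Ccl6, 0.404 for Ptgs2, 0.515 for Ms4a6d and 0.291 for Hamp. Pvr, the poliovirus receptor that mediates cell adhesion, came closest (1.01 and -0.18, adjusted p = 0.0679). Npy4r, a neuropeptide Y receptor, rose in both comparisons, by 1.49 and 2.42 (interaction adjusted p = 0.157).

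**Figure D3:**
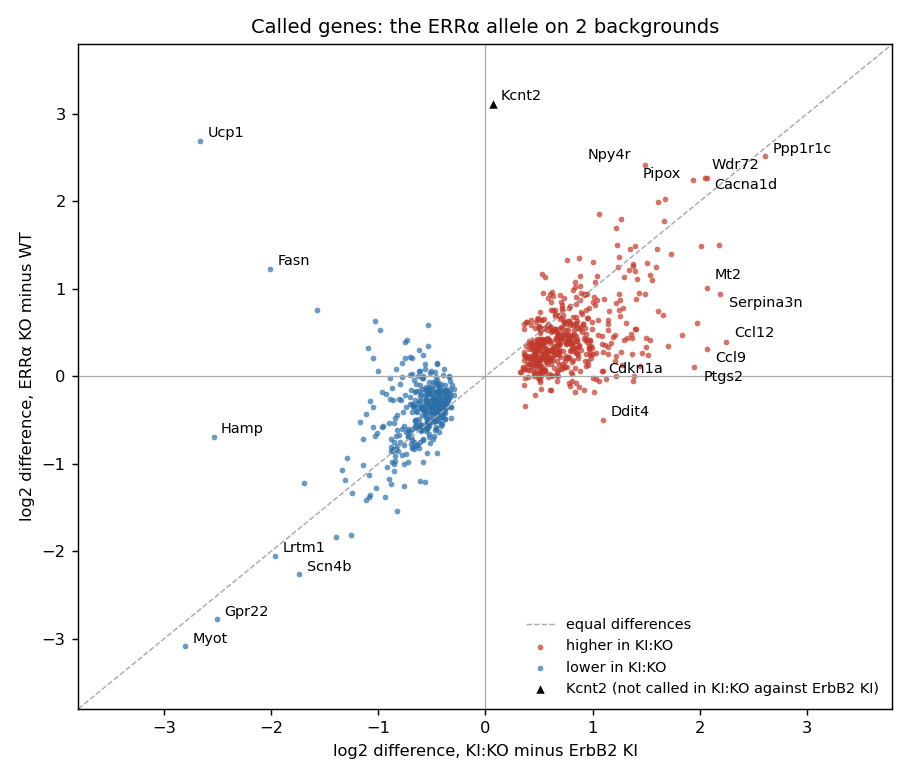
For each of the 867 called genes, the log2 difference between KI:KO and ErbB2 KI hearts (x axis) is set against the log2 difference between ERRα KO and WT hearts (y axis), with a dashed line of equal differences and Kcnt2 added. Myot, Gpr22, Ppp1r1c and Cacna1d lie near the line, and Ccl12, Ccl9, Ptgs2 and Hamp lie near the horizontal axis.

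Genes of mitochondrial fatty acid oxidation were the metabolic group with the most falls. Counts of called members, here and in the lists below, stand beside shares of 1.69% lower and 2.22% higher over all genes. Of 22 genes of beta-oxidation, 9 fell (40.9%) and 0 rose, and all 22 had a negative difference. The median was -0.27, beside -0.01 over all genes and -0.27 for the same 22 genes in ERRα KO against WT hearts. Hadh, the short-chain 3-hydroxyacyl-CoA dehydrogenase, had 10.09, 10.43 and 10.35 in KI:KO and 11.07, 10.92 and 11.11 in ErbB2 KI hearts (1.67-fold lower, adjusted p = 0.00175), and was called whichever array was left out. The thiolase gene Acaa2 had 11.01, 11.11 and 10.87 against 11.51, 11.42 and 11.34 (-0.43 ± 0.09, adjusted p = 0.0186), and the medium-chain dehydrogenase gene Acadm had no array above 12.24 in KI:KO and none below 12.46 in ErbB2 KI hearts (-0.35 ± 0.08, adjusted p = 0.0405). The arrays of the groups did not overlap for any of these 3 genes. The number of falls in the list depended on single arrays: it was 1 without ErbB2 KI replicate 1, 4 without ErbB2 KI replicate 2, ErbB2 KI replicate 3 or KI:KO replicate 1, 3 without KI:KO replicate 3, and 9 without KI:KO replicate 2. Acaa2 lost its call without ErbB2 KI replicate 1, ErbB2 KI replicate 2 or KI:KO replicate 3 (adjusted p of 0.0516 to 0.0842), and Acadm without any array but KI:KO replicate 2 (0.0648 to 0.129).

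Around this core the changes were few. In fatty acid uptake and the carnitine shuttle 1 of 24 genes rose and 2 fell: the acyl-CoA synthetase gene Acsl4 had 7.67, 7.49 and 7.34 in KI:KO and 6.81, 6.56 and 6.60 in ErbB2 KI hearts (0.84 ± 0.11), while the triglyceride-forming Dgat2 (-0.92 ± 0.12) and the fatty acid transporter gene Slc27a1 (-0.62 ± 0.10) fell. The citric acid cycle had 1 fall in 19 genes, that of Idh2, the mitochondrial NADP-dependent isocitrate dehydrogenase (1.42-fold lower). In pyruvate entry 1 of 14 genes fell, Pdpr, a regulator of pyruvate dehydrogenase phosphatase (-0.64 ± 0.09). Of 18 genes of branched-chain amino acid breakdown 3 fell (1 without ErbB2 KI replicate 1 or KI:KO replicate 1, and 1 gene rose without KI:KO replicate 1 or KI:KO replicate 3), led by Bckdha (-0.65 ± 0.11), a subunit of the committed branched-chain keto acid dehydrogenase. Abcd2, a transporter of very long-chain acyl-CoA into peroxisomes, fell by 0.86 ± 0.11 on the log2 scale.

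Few genes of the respiratory chain were called, beside 1.69% of all genes called lower and 2.22% called higher. Of 32 subunits of complex I, 0 were called by limma (1 higher and 6 lower at an unadjusted p below 0.05). Their median was -0.08, and 27 had a negative difference. Of 36 subunits of complexes III to V 1 fell, Cox4i1 (-0.36 ± 0.07), and 26 had a negative difference. Cox4i1 missed the threshold without ErbB2 KI replicate 1, ErbB2 KI replicate 3 or KI:KO replicate 1 (adjusted p of 0.0638 to 0.0718). Among 69 mitochondrial ribosomal proteins 1 rose (1.45%) and 1 fell (1.45%), near the shares over all genes. The ribosomal protein list had 0 rises in 5 of the 6 fits with an array left out and 1 without KI:KO replicate 3, and 1 complex I gene was called lower without KI:KO replicate 2. A pair of subunit genes passed the threshold in ERRα KO against WT hearts and missed it in KI:KO against ErbB2 KI hearts. Atp5e had 9.43, 9.52 and 9.58 in KI:KO and 9.87, 9.83 and 9.78 in ErbB2 KI hearts (-0.32 ± 0.08, adjusted p = 0.0646). Ndufv3 was at -0.25 ± 0.09 (adjusted p = 0.193), and they were at -0.43 and -0.39 in ERRα KO against WT hearts. The interaction of these genes was 0.12 ± 0.12 (adjusted p = 0.883) and 0.14 ± 0.13 (0.864), so a difference between the backgrounds was not shown. Tfam, the packaging factor of mitochondrial DNA, had overlapping arrays (-0.16 ± 0.17).

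Glucose handling had strong changes in a few genes. Slc2a1, the GLUT1 glucose transporter that is abundant in fetal and stressed hearts, had 8.78, 8.50 and 8.75 in KI:KO and 7.33, 7.20 and 7.20 in ErbB2 KI hearts (2.70-fold, adjusted p = 2.79e-05). Pfkp, the platelet-type phosphofructokinase, had 10.13, 10.04 and 10.01 against 8.80, 8.63 and 8.56 (2.63-fold), and Hk1, the housekeeping hexokinase, 9.35, 9.38 and 9.20 against 8.36, 8.36 and 8.37 (1.93-fold). Each of these 3 had KI:KO arrays well apart from ErbB2 KI arrays and rose in ERRα KO against WT hearts too, by 0.96, 1.2 and 0.94. The muscle counterparts moved the other way: Hk2 fell by 0.39 ± 0.08 and Pfkm by 0.55 ± 0.12 on the log2 scale. The fall of Hk2 was lost without ErbB2 KI replicate 1 or KI:KO replicate 2 (adjusted p of 0.0543 to 0.0716) and that of Pfkm without any ErbB2 KI array or KI:KO replicate 1 (0.0609 to 0.0828). Over the 24 genes of the list 3 rose (12.5%) and 2 fell (8.33%), with a median of 0.16. Ldha was at 0.15 ± 0.10 (limma, adjusted p = 0.54), with overlapping arrays at 6.01, 6.23 and 6.39 in KI:KO and 6.04, 6.05 and 6.11 in ErbB2 KI hearts. The paper reports increased cardiac Ldha mRNA by RT-qPCR, a measure that was not compared with this array row.

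Of 14 genes of phosphoryl transfer, the buffering of ATP by creatine and adenylate enzymes, 4 rose and 0 fell, although the median was -0.05. Ckmt1, a mitochondrial creatine kinase, had 5.89, 6.02 and 6.20 in KI:KO and 5.10, 5.09 and 5.28 in ErbB2 KI hearts (0.88 ± 0.16, adjusted p = 0.00865). Slc6a8, the creatine transporter, rose by 0.43 ± 0.08. Ampd3 (0.53 ± 0.10), an AMP deaminase, and Ckb (0.47 ± 0.11), the brain-type creatine kinase, were called with all arrays, but 2 of the 4 rises in the list were left without ErbB2 KI replicate 1, where Ampd3 had an adjusted p of 0.0516. Ckb missed the threshold there and without ErbB2 KI replicate 3, KI:KO replicate 2 or KI:KO replicate 3 (0.061 to 0.119).

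**Figure D4:**
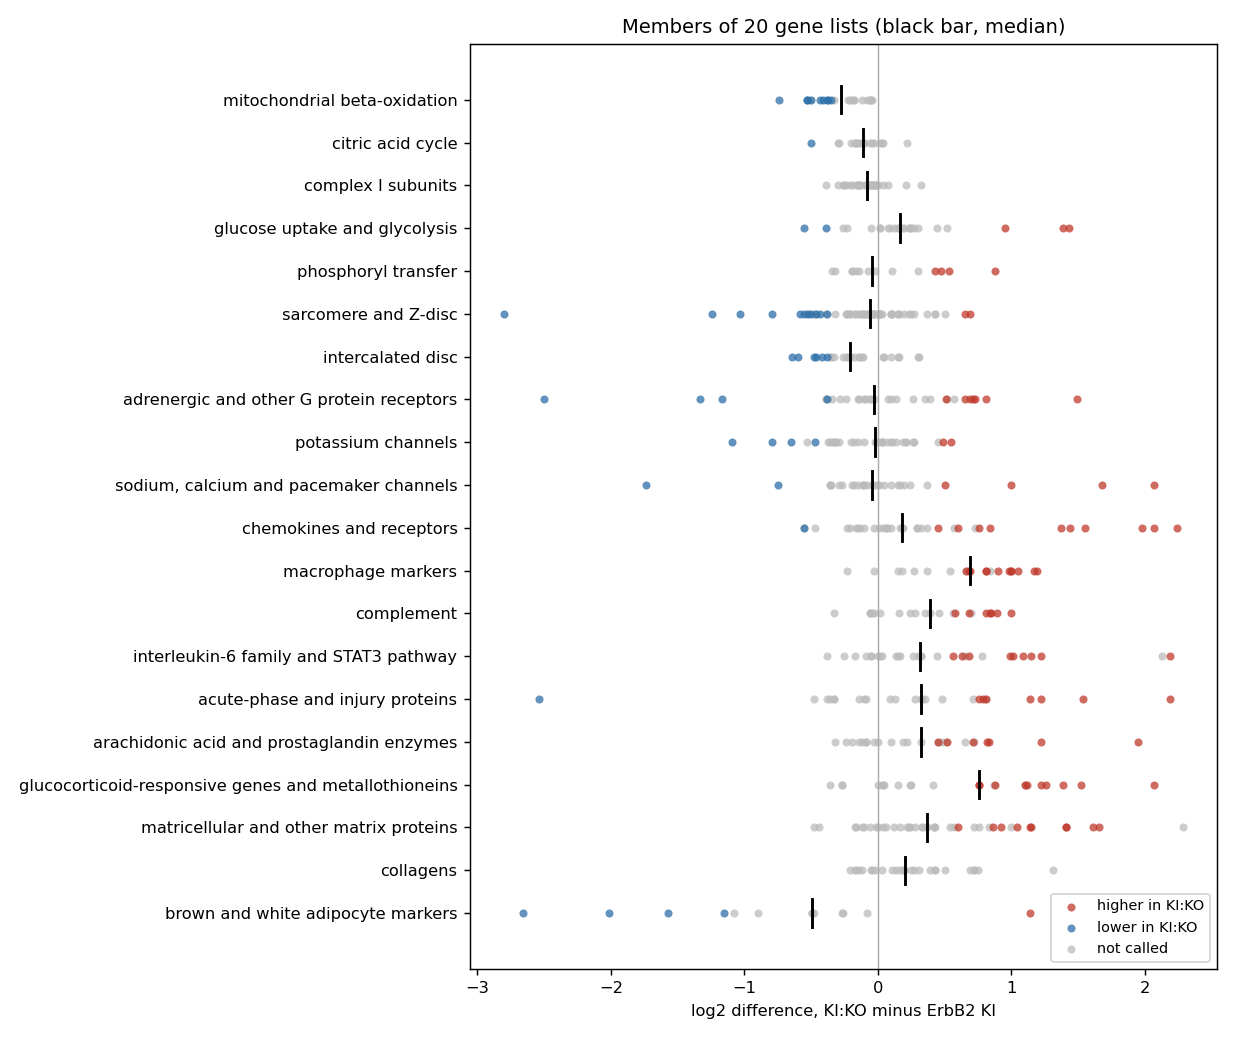
Each point is 1 gene of a list (rows), placed at its log2 difference between KI:KO and ErbB2 KI hearts (x axis), coloured by whether it was called, with a black bar at the median of the list. The beta-oxidation genes all lie below 0 (median -0.27), while the macrophage and glucocorticoid-responsive lists have medians of 0.69 and 0.76.

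Ion channel genes changed in both directions. Of 29 sodium, calcium and pacemaker channel genes 4 rose (13.8%) and 2 fell (6.9%). Of 34 potassium channel genes 2 rose (5.88%) and 4 fell (11.8%), beside 2.22% and 1.69% of all genes. The potassium channel rises numbered 0 without any ErbB2 KI array or KI:KO replicate 2 and 1 without KI:KO replicate 3, where 7 fell. Of the 2 sodium and calcium channel falls, Scn4b held in every fit, as its choice as a leading fall required. Besides Cacna1d and Scn4b, Slc24a2, a potassium-dependent sodium/calcium exchanger, had 6.56, 6.48 and 6.62 in KI:KO and 4.87, 5.10 and 4.67 in ErbB2 KI hearts (3.21-fold). Hcn2, the main pacemaker (funny) channel of the ventricle, had 8.45, 8.67 and 8.73 against 7.70, 7.50 and 7.65 (2.01-fold, adjusted p = 0.000325), and Atp1b1, a sodium pump subunit, rose by 0.50 ± 0.08. Among potassium channels Kcnv2, a silent modulatory subunit, had 6.06, 5.75 and 6.29 against 7.30, 6.89 and 7.17 (-1.09 ± 0.17). Kcnj3 (-0.79 ± 0.11) and Kcnj5 (-0.65 ± 0.12), which together form the acetylcholine-activated GIRK channel of atrial cells, also fell. Kcnj3 is one of the 10 atrial markers, of which it alone was called with all arrays, while 5 were lower at an unadjusted p below 0.05 and 3 were called lower without KI:KO replicate 3. The list averaged 9.38 to 9.69 on KI:KO arrays and 9.63 to 9.88 on ErbB2 KI arrays. The part of a differing share of atrial tissue in these values was not tested.

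In the contractile apparatus falls outnumbered rises. Of 63 sarcomere and Z-disc genes 11 fell (17.5%) and 2 rose (3.17%), beside 1.69% and 2.22% of all genes, with a median of -0.06. With single arrays left out the falls numbered 6 (without ErbB2 KI replicate 1 or KI:KO replicate 1) to 12 (without KI:KO replicate 2), with 7 without ErbB2 KI replicate 2 or ErbB2 KI replicate 3. The rises numbered 4 without KI:KO replicate 3, 2 without ErbB2 KI replicate 2 and 1 in the other 4 fits. The falls were led by Myot, followed by Tmod4, by Tcap, which encodes the titin cap telethonin (9.89, 10.11 and 9.73 in KI:KO and 10.65, 10.91 and 11.24 in ErbB2 KI hearts, -1.03 ± 0.15), and by Myom2, an M-band protein (-0.79 ± 0.11). Mybpc3, the cardiac myosin-binding protein C, had 11.53, 11.62 and 11.59 against 12.07, 12.03 and 12.13 (1.41-fold lower). Myom2 was at -0.08 in ERRα KO against WT hearts (adjusted p = 0.834), with an interaction that missed the threshold (adjusted p = 0.301). Of 26 intercalated disc genes 6 fell and 0 rose (median -0.21, and 2 to 5 falls with an array left out, 2 without ErbB2 KI replicate 1 and 3 without ErbB2 KI replicate 2 or KI:KO replicate 2, with 1 rise without KI:KO replicate 3). Dsp, desmoplakin, had 11.62, 11.56 and 11.62 in KI:KO and 12.11, 12.04 and 12.02 in ErbB2 KI hearts, and its desmosomal partner Dsg2, a desmoglein, 8.19, 8.09 and 8.21 against 8.70, 8.59 and 8.63. Both drops, 0.46 and 0.48 on the log2 scale, were called whichever array was left out. Hrc, a histidine-rich calcium-binding protein of the sarcoplasmic reticulum, fell by 0.88 ± 0.12.

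The natriuretic peptides, which stretched cardiomyocytes release, differed little. Nppb had 12.88, 12.67 and 12.30 in KI:KO and at most 12.20 in ErbB2 KI hearts (0.51 ± 0.13, adjusted p = 0.046), a call lost without any array but KI:KO replicate 3 (adjusted p of 0.0879 to 0.144). Nppa was at 13.74, 13.59 and 13.73 against 13.55, 13.60 and 13.52 (0.13 ± 0.08, adjusted p = 0.488), with overlapping arrays.

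G protein-coupled receptors and their regulators held 7 rises and 4 falls among 31 genes, each of which was 3 or more in every fit with an array left out. For the falls this followed from Gpr22, Agtr1a and Aplnr, leading genes that were chosen for holding in every fit. Beside the falls of Gpr22, Agtr1a and Aplnr, the receptor kinase gene Grk5 had 9.0, 8.78 and 8.91 in KI:KO and 8.19, 8.08 and 8.23 in ErbB2 KI hearts (0.73 ± 0.09). Agtr1a had 6.54, 7.04 and 6.63 against 8.11, 7.94 and 8.16, and Aplnr 6.75, 6.57 and 6.56 against 7.75, 7.71 and 7.95. Of 25 genes of arachidonic acid and prostaglandin metabolism 7 rose and 0 fell, with a median of 0.32 and 4 to 7 rises with an array left out (4 without ErbB2 KI replicate 1 or KI:KO replicate 2). Pla2g5, a secreted phospholipase A2, rose by 0.82 ± 0.14, and the receptor genes Ptger4 and Ptgfr by 0.71 ± 0.12 and 1.22 ± 0.11. Ptgfr, the prostaglandin F receptor, had 8.56, 8.68 and 8.63 in KI:KO and 7.49, 7.48 and 7.23 in ErbB2 KI hearts, and rose by 1.70 in ERRα KO against WT hearts as well. Ptgs2, in contrast, was at 0.11 there (adjusted p = 0.947).

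Chemokine genes and macrophage markers were called in part. Of 35 chemokines and their receptors 10 rose and 1 fell (Ackr3, a scavenging receptor, -0.55 ± 0.11), with a median of 0.18, against 0.15 and no called gene in ERRα KO against WT hearts. With an array left out the rises numbered 4, 5 and 6 without ErbB2 KI replicates 1, 2 and 3, and 7 or 8 otherwise. Cxcl14, which attracts monocytes, had 8.70, 8.87 and 9.08 in KI:KO and 8.19, 8.04 and 8.14 in ErbB2 KI hearts. The fall of Ackr3 was lost without ErbB2 KI replicate 1 or ErbB2 KI replicate 2 (adjusted p of 0.0515 to 0.0643), and 2 genes of the list fell without KI:KO replicate 3. Of 21 macrophage markers 12 rose and 0 fell, their median was 0.69, and their mean log2 level was 7.31 to 7.57 on KI:KO arrays and 6.67 to 6.79 on ErbB2 KI arrays.

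Among the macrophage genes Lyve1, a hyaluronan receptor of resident cardiac macrophages and lymphatic vessels, had 9.72, 9.92 and 9.72 in KI:KO and 8.60, 8.95 and 8.83 in ErbB2 KI hearts (2.00-fold, adjusted p = 0.000394). The mannose receptor gene Mrc1 rose by 0.81 ± 0.12, the endotoxin co-receptor gene Cd14 by 0.98 ± 0.13, the Fc receptor gene Fcgr1 by 1.05 ± 0.16 and the integrin gene Itgam by 1.17 ± 0.18. None of these had overlapping arrays. Rises in the list numbered 6 without ErbB2 KI replicate 1, 7 without either of the other ErbB2 KI arrays, and 9 to 11 without a KI:KO array. In ERRα KO against WT hearts the median of the list was 0.36 with 0 called, and ERRα KO arrays spread from 6.87 to 7.38 in mean level, against 6.69 to 6.88 in WT. With all arrays, 0 of 10 neutrophil markers and 0 of 12 T, B and NK cell markers were called by limma (3 and 0 at an unadjusted p below 0.05), with mean levels of 3.94 to 4.61 and 4.13 to 4.19 on KI:KO arrays and 3.85 to 3.98 and 4.13 to 5.09 on ErbB2 KI arrays. Without KI:KO replicate 3, 2 neutrophil markers were called higher, and the neutrophil means of KI:KO replicates 1 and 2 (4.61 and 4.37) were above all ErbB2 KI arrays. The part of macrophage number in the chemokine and complement values was not tested.

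Some genes of innate immunity were called, and C1qa, C1qb and C1qc count among both the complement and the macrophage rises. Of 21 complement genes 7 rose and 0 fell (median 0.39), of 29 genes of the interleukin-6 family and STAT3 pathway 9 rose and 0 fell (0.32), and of 25 acute-phase and injury proteins 7 rose and 1, Hamp, fell (0.32). C1qc, a chain of the C1q complement trigger made largely by macrophages, had 7.57, 7.48 and 7.54 in KI:KO and 6.39, 6.90 and 6.88 in ErbB2 KI hearts. Serping1, the C1 inhibitor, rose by 0.58 ± 0.10. Osmr, the oncostatin M receptor, had 9.54, 9.14 and 9.01 against 8.20, 8.08 and 8.14 (2.13-fold, adjusted p = 0.00113), and Il4ra, the interleukin-4 receptor, rose by 1.01 ± 0.14. Lcn2, an iron-scavenging lipocalin, had 7.42, 7.46 and 7.05 against 6.31, 5.97 and 5.98 (1.22 ± 0.15), beside 0.01 in ERRα KO against WT hearts, and Lbp (0.79 ± 0.12) and Lrg1 (0.76 ± 0.12) rose with it. The complement rises numbered 2 without ErbB2 KI replicate 1, 3 when either of the other ErbB2 KI arrays was left out, and 4 or 5 when a KI:KO array was, while those of the other 2 lists stayed between 5 and 13. Stat3 itself was at 0.32 ± 0.11 (adjusted p = 0.18), and Myd88 at 0.42 ± 0.10 (adjusted p = 0.0457), a call lost without any array but KI:KO replicate 3 (0.0937 to 0.164). Of 30 interferon-stimulated genes 2 rose, Oasl2 and Xaf1, neither of which was called without ErbB2 KI replicate 1 and 1 of which was lost without ErbB2 KI replicate 2 or KI:KO replicate 1. The interferon list still had a median of 0.34, with 27 positive members and 11 higher at an unadjusted limma p below 0.05. Of 18 antigen presentation genes 0 were called by limma (2 higher at an unadjusted p below 0.05), with a median of 0.20 and 16 positive members.

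Genes known to respond to glucocorticoids, together with the metallothioneins, had the highest median of the 46 pathway lists, 0.76, with 10 of 23 genes higher and 0 lower. The same list had a median of 0.09 with 1 called in ERRα KO against WT hearts, and mean levels of 8.23, 8.43 and 8.34 on KI:KO arrays, 7.76, 7.72 and 7.65 on ErbB2 KI arrays, 7.69 to 7.84 on ERRα KO arrays and 7.55 to 7.63 on WT arrays. All 3 KI:KO arrays were thus above the other 9, and 9 to 11 rises were found with any array left out. The lists were chosen with earlier results of these data known, so the rank of this one is a description only. Among its rises, Cdkn1a and Gadd45g are also p53 list members, and Lcn2 is also in the interleukin-6 and acute-phase lists. Fkbp5, a cochaperone of the glucocorticoid receptor, had 7.51, 7.70 and 7.36 in KI:KO and 6.54, 6.27 and 6.40 in ErbB2 KI hearts (2.17-fold, adjusted p = 0.000221). Cdkn1a, the cell cycle inhibitor p21, had 9.45, 9.67 and 9.96 against 8.45, 8.23 and 7.85 (2.86-fold), and Fam107a rose by 1.26 ± 0.12. Gadd45g (1.39 ± 0.21), a growth arrest gene, was at 0.00 in ERRα KO against WT hearts. Sgk1, the serum- and glucocorticoid-regulated kinase, had 6.46, 7.03 and 7.26 against 6.09, 5.95 and 6.06 (0.88 ± 0.16). The receptor gene Nr3c1 was at -0.36 ± 0.10 (adjusted p = 0.0688), and Per1, which glucocorticoids and the clock both drive, at 1.10 ± 0.29 (adjusted p = 0.0581). Of 17 clock genes 0 were called by limma, with 3 at an unadjusted p below 0.05.

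Other stress groups were less even. Fas, a death receptor, had 7.26, 7.40 and 7.42 in KI:KO and 6.53, 6.57 and 6.81 in ErbB2 KI hearts (0.72 ± 0.11), and with Cdkn1a, Gadd45g and Tnfrsf1a made up 4 rises among 24 p53 targets and death receptors. Tnfrsf1a, a TNF receptor, lost its call without ErbB2 KI replicate 1, ErbB2 KI replicate 3 or KI:KO replicate 1 (0.062 to 0.0716). In the integrated stress response 3 of 30 genes rose, led by Gars, the glycyl-tRNA synthetase (9.99, 10.02 and 9.88 against 9.20, 9.10 and 9.14), and 1 fell, Vldlr (-0.60 ± 0.10). Of 34 antioxidant genes 4 rose (1 without ErbB2 KI replicate 1) and 1, Gsta4, fell (-0.55 ± 0.10). Gpx8, a peroxidase of the endoplasmic reticulum, rose by 0.98 ± 0.09. Hmox1, the haem-degrading oxygenase, had 8.13, 7.03 and 6.89 against 5.77, 6.13 and 6.29 (1.29 ± 0.27, adjusted p = 0.02), a call lost without ErbB2 KI replicate 1 or ErbB2 KI replicate 2 (0.0586 to 0.09), and Nfe2l2, the factor NRF2, was at 0.31 ± 0.09 (adjusted p = 0.0862). Of 32 heat shock proteins 0 rose and 1 fell, the cochaperone gene Fkbp4 (-0.83 ± 0.12), and without KI:KO replicate 3 the rises numbered 8. Stip1, a cochaperone that links the chaperones HSP70 and HSP90, is an example. It had 10.17, 10.04 and 9.28 in KI:KO hearts, against 9.30, 9.25 and 9.14 in ErbB2 KI hearts, and KI:KO replicate 3 alone lay within the ErbB2 KI range.

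**Figure D5:**
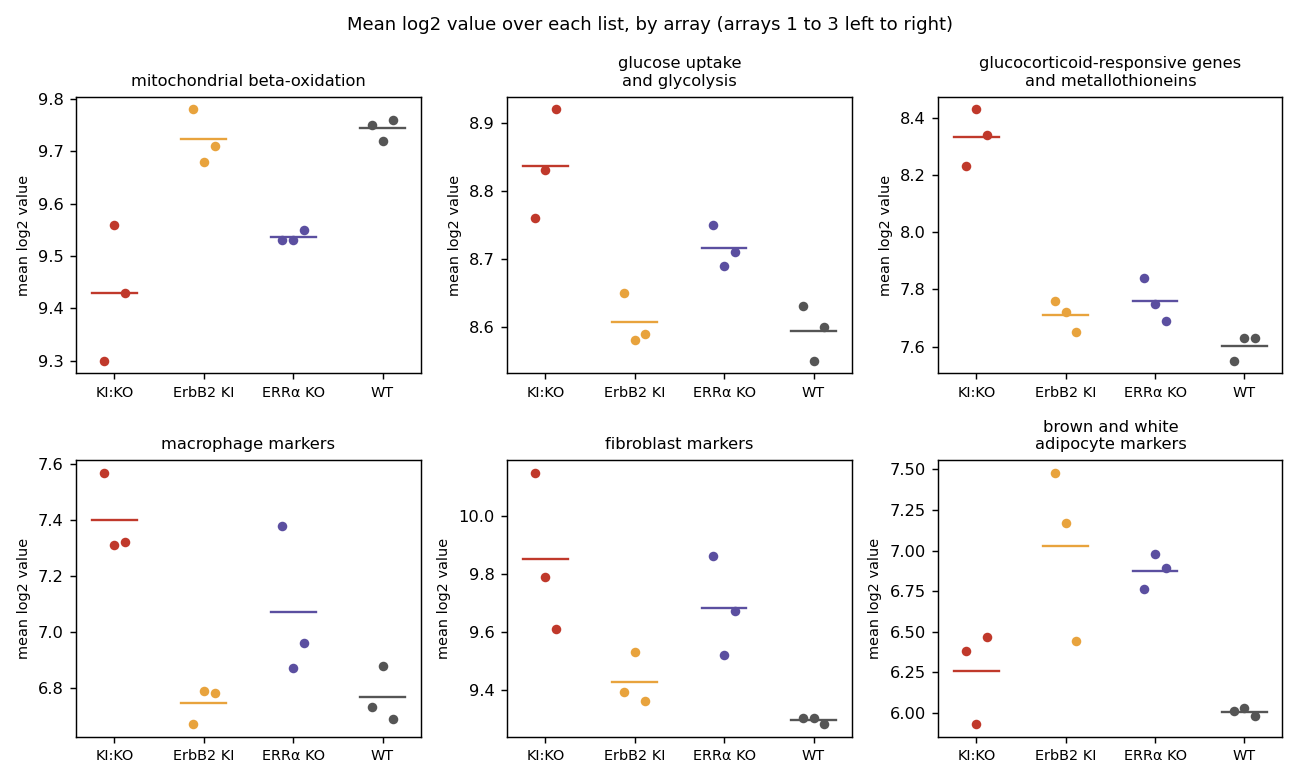
Mean log2 value over 6 gene lists (y axis, a separate scale in each panel, not starting at 0), with 1 point per array in the order of replicates and a line at the group mean, for KI:KO, ErbB2 KI, ERRα KO and WT hearts. The glucocorticoid-responsive list is highest on the 3 KI:KO arrays (8.23 to 8.43), and the adipocyte markers are highest on ErbB2 KI replicates 1 and 2 (7.48 and 7.17).

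Matrix genes rose in part. Of 41 matricellular and other matrix proteins 10 rose and 0 fell (median 0.37), of 35 matrix proteases, inhibitors and cross-linkers 3 rose (0.38, with 0 rises without ErbB2 KI replicate 1, 1 without either of the other ErbB2 KI arrays and 5 without KI:KO replicate 2 or KI:KO replicate 3), and of 27 collagens 0 were called by limma (0.20, with 3 higher at an unadjusted p below 0.05, and 2 called higher without KI:KO replicate 3). Ccn2, the connective tissue growth factor that TGF-β induces, had 9.89, 9.67 and 9.74 in KI:KO and 8.43, 8.57 and 8.08 in ErbB2 KI hearts (2.65-fold, adjusted p = 0.000198). Fgl2, a fibrinogen-like protein, rose by 1.15 ± 0.15 and the elastic fibre gene Fbln2 by 0.92 ± 0.16. Acta2, the smooth muscle actin of myofibroblasts and vessel walls, had 12.33, 12.64 and 12.42 against 11.27, 11.26 and 10.66 (2.64-fold), and rose by 1.49 in ERRα KO against WT hearts. Meox1, a homeobox factor of activated fibroblasts, rose by 1.15 ± 0.14. These 5 calls held whichever array was left out. The list of matricellular and other matrix proteins had 3 rises when ErbB2 KI replicate 1 was left out, 4 for ErbB2 KI replicate 3, 6 for KI:KO replicate 1 and 7 to 11 for the others.

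Several matrix genes were highest in KI:KO replicate 1. Postn, periostin of activated fibroblasts, had 11.41, 9.56 and 9.57 in KI:KO and 8.35, 8.79 and 8.58 in ErbB2 KI hearts (1.61 ± 0.39, adjusted p = 0.0438), and lost its call without any of the ErbB2 KI arrays (0.089 to 0.15). Timp1, a metalloproteinase inhibitor, had 9.27, 7.03 and 6.01 against 5.15, 5.46 and 5.31 (2.13 ± 0.57, adjusted p = 0.0633), and the cross-linker gene Lox 8.71, 6.42 and 7.06 against 5.93, 5.67 and 5.66 (1.64 ± 0.42, adjusted p = 0.0521). All KI:KO arrays were above the ErbB2 KI arrays for these 3 genes. In each of the 3, however, replicate 1 was higher than the other KI:KO hearts by more than those differed from the ErbB2 KI range. Tgfb3, a TGF-β ligand, had 8.99, 8.30 and 8.34 against 7.77 at most (0.85 ± 0.16, adjusted p = 0.0139), a call lost without ErbB2 KI replicate 1 or ErbB2 KI replicate 3 (0.0526 to 0.0547). Of 14 fibroblast markers 1 rose, Mfap5, a call kept without KI:KO replicate 3 only, and their mean level, 9.61 to 10.15 on KI:KO and 9.36 to 9.53 on ErbB2 KI arrays, moved with the matrix genes. Its part in them was not tested.

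A few iron genes were called, hepcidin among them. Of 34 iron and haem genes 4 fell (11.8%), Hamp, Hjv, Slc40a1 and Alad, and 1, Hmox1, rose (2.94%), with 2 rises without KI:KO replicate 3. The list had 17 positive and 17 negative members and a median of -0.01. Alad was at -0.42 ± 0.09 (limma, adjusted p = 0.0263), a call kept only without KI:KO replicate 2 among the fits with an array left out (0.0676 to 0.101 in the others). Hjv, hemojuvelin, a BMP co-receptor made by muscle and required for hepcidin expression in liver, had 9.55, 9.86 and 9.52 in KI:KO and 10.38, 10.32 and 10.51 in ErbB2 KI hearts (-0.76 ± 0.11, adjusted p = 0.00275), and its ERRα KO minus WT difference was -1.0. Slc40a1, the exporter ferroportin on which hepcidin acts, had 6.28, 5.68 and 5.73 against 6.66, 6.75 and 6.60 (-0.78 ± 0.17), a call held only without KI:KO replicate 1 among the fits with an array left out (0.0594 to 0.0944 in the other 5). With an array left out, 2 or 3 falls of the 4 were found, 2 of them without any of the ErbB2 KI arrays or without KI:KO replicate 3.

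Sphingolipid genes rose where they changed: 6 of 27 (22.2%) were higher and 0 lower, with a median of 0.17. St3gal5, the synthase of ganglioside GM3, had 9.26, 9.46 and 9.30 in KI:KO and 8.42, 8.28 and 8.50 in ErbB2 KI hearts (1.92-fold, adjusted p = 0.000253), and Smpd1, the acid sphingomyelinase, rose by 0.63 ± 0.09. The rises numbered 2 without ErbB2 KI replicate 1, 3 without the other ErbB2 KI arrays or KI:KO replicate 1, and 4 or 5 without the remaining KI:KO arrays. Growth factor genes were called in 9 of 43 cases with all arrays (6 higher, or 14%, and 3 lower, or 6.98%), but in 0 without ErbB2 KI replicate 1 and in at most 5 with any array left out. Fgf6 (0.48 ± 0.15), Fgf16 (-0.27 ± 0.11), Igf1 (0.45 ± 0.16), Pgf (0.46 ± 0.16), Irs2 (0.56 ± 0.19) and Mapk11 (0.31 ± 0.11), signalling genes of interest in this model, had adjusted p between 0.107 and 0.229. The paper places Fgf6, Fgf16, Igf1 and Pgf in its ErbB2 KI-driven signature, drawn from comparisons with WT hearts at an unadjusted threshold. Both groups compared here carry the ErbB2 KI allele, so these values do not bear on that signature. Of 14 ErbB receptors and ligands 0 were called by limma (4 higher and 2 lower at an unadjusted p below 0.05), although 2 were called higher without KI:KO replicate 3, and Erbb4, the partner of ErbB2, was at -0.37 ± 0.11 (adjusted p = 0.101).

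Fat cell genes differed between hearts of the same group. Of 14 brown and white adipocyte markers 4 were lower (Ucp1, Fasn, Scd1 and Cidea) and 1 higher (Dio2) in KI:KO hearts, and the falls numbered 1 without ErbB2 KI replicate 1 or KI:KO replicate 2 and 2 without ErbB2 KI replicate 2. Scd1, a fatty acid desaturase, lost its call without ErbB2 KI replicate 1, ErbB2 KI replicate 2, KI:KO replicate 1 or KI:KO replicate 2 (0.0957 to 0.122). Ucp1, the uncoupling protein of brown fat, had 5.70, 4.44 and 5.38 in KI:KO and 9.15, 7.37 and 6.99 in ErbB2 KI hearts (-2.66 ± 0.57, adjusted p = 0.0219), and lost its call without ErbB2 KI replicate 1 or KI:KO replicate 2 (0.0716 to 0.0852). Fasn, the fatty acid synthase, had 7.61, 7.01 and 7.84 against 10.21, 9.90 and 8.36 (-2.01 ± 0.38, adjusted p = 0.0129), and missed the threshold without ErbB2 KI replicate 1, ErbB2 KI replicate 2 or KI:KO replicate 2 (0.0539 to 0.0578). Over the list the mean levels were 6.38, 5.93 and 6.47 in KI:KO, 7.48, 7.17 and 6.44 in ErbB2 KI, 6.76 to 6.98 in ERRα KO and 5.98 to 6.03 in WT hearts. On the wild-type background Ucp1 was higher by 2.70 ± 0.57 in ERRα KO than in WT hearts (adjusted p = 0.0284), the opposite sign, with an interaction of -5.36 ± 0.80 (adjusted p = 0.110). The part of attached fat tissue in these genes, and in Cidea among the leading falls, was not tested. Cidea was called in each of the 6 fits with an array left out, which was a condition of its choice as a leading fall. It had 7.44, 7.19 and 7.29 in KI:KO against 8.84, 8.34 and 8.18 in ErbB2 KI hearts, and was lower by 0.71 in ERRα KO than in WT hearts.

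Genes near the deleted locus were counted separately. Within 5 Mb of the start of Esrra on chromosome 19, 12 of 277 genes other than Esrra were called (4.33%, beside 3.91% of all genes). They included Ms4a4a and Ms4a6d. Whether the sequence of any of these genes differs between the KI:KO and ErbB2 KI mice was not tested.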

How the data were processed

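Total RNA from frozen, powdered hearts was hybridised to Affymetrix Mouse Gene 2.0 ST arrays, 3 per genotype. The log2 values were deposited by the authors after RMA in Affymetrix Expression Console 1.4.1, per the labels, with Transcriptome Analysis Console also named there, and no detection call was part of the table. RMA draws all arrays to a common distribution, so a change shared by most genes is not visible, and the number of arrays limits the precision. Of 41345 rows, 23521 had 1 gene in the platform annotation, 1820 had several and 16004 had none. For each of the 22180 genes the row with the highest mean over the 12 arrays was kept (1082 genes had more than 1 row). Positions and promoter sequence came from RefSeq (GRCm38.p6), with a position for 22136 genes.

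One limma model (version 3.58.1, R 4.3.3) with 4 group means was fitted to the 12 arrays, with 8 residual degrees of freedom. Its moderated tests were two-sided and Benjamini-Hochberg adjusted over 22180 genes, and the fitting steps were tested on simulated data. The genes named were the 15 largest rises and falls called in all fits with an array left out, up to 5 called and 2 uncalled genes per list by p, the targeted genes, genes discussed by the study, and the 10 called genes with the smallest interaction p. Sirt5, Ankrd23 and Sgk1 fall outside this rule and were chosen after their values were seen. Members and gene lists were chosen with earlier results of these data known. Acsl1, Ndufb2 and Ptgs1 are not analysed here, since no row named them alone. Alternatives covered the samples fitted, dim genes, row choice, normalisation, variance model, array weights, blocks, thresholds and each array left out.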

Additional observations from a re-analysis of the deposited data

Results flagged for a closer look

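The difference of the ERRα effect between the ErbB2 KI and the WT background passed the limma interaction test for 2 genes. For Ddit4 it was 1.59 ± 0.20 on the log2 scale (adjusted p = 0.0495), with KI:KO minus ErbB2 KI at 1.10 and ERRα KO minus WT at -0.49. For Kcnt2 it was -3.05 ± 0.19 (adjusted p = 4.55e-05), with KI:KO minus ErbB2 KI at 0.07 and ERRα KO minus WT at 3.12. Groups of 3 arrays are too small for a test of single outlying arrays.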

How the results depend on the processing

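The counts of called genes moved with the processing. Of 3540 values of named genes under the alternatives, 2750 kept their direction and their side of the threshold, 790 kept their direction only, and 0 of the called ones changed sign. Several settings reuse the same group means, and leaving out 1 array cannot reverse a gene whose arrays do not overlap. The lack of sign changes was therefore largely fixed in advance. Genes called higher in KI:KO than in ErbB2 KI hearts numbered 493 and lower 374, against 314 and 199 over all rows of the table, 767 and 574 among the 13308 genes above the 40th percentile of mean level, 755 and 606 with an intensity trend and robust variance, 211 and 126 with the 6 arrays compared alone, 328 and 163 at 1.5-fold or more, and 1506 and 1368 at the methods' threshold on the limma p (unadjusted, with 1.2-fold). The methods' one-way ANOVA with Benjamini-Hochberg adjustment called 0 and 0, with 1368 and 1456 at an unadjusted p below 0.05. Leaving out 1 array gave 237 to 519 higher and 164 to 320 lower. For ERRα KO against WT, 253 higher and 268 lower became 156 and 147 over all rows, 413 and 458 with array weights, 415 and 464 without dim genes, 419 and 511 with the trend, 167 and 149 with 6 arrays, 49 and 61 by ANOVA (1272 and 1590 unadjusted), 1139 and 1157 at the methods' threshold, and 128 lower at 1.5-fold, with 122 to 167 higher and 88 to 165 lower when 1 array was left out. The 2 interactions became 5, 4, 6 and 14 under all rows, array weights, no dim genes and the trend, 1 after quantile normalisation, 1547 at the methods' threshold and 1 to 22 with 1 array left out. The cause of these shifts was not tested, beyond the fewer arrays, fewer genes or other thresholds that the settings themselves bring.

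The replicate number as a block gave 410 higher and 270 lower genes in KI:KO, 171 lower in ERRα KO against WT and 1 interaction. Same-numbered KI:KO and ErbB2 KI arrays deviated together with correlations of 0.033, 0.044 and 0.181. With so few arrays these values cannot show whether the numbers pair the samples, and the labels name no pairing. A set of 4 arrays (KI:KO replicate 3, ErbB2 KI replicate 3, ERRα KO replicate 2 and WT replicate 2) deviated together at 0.177 to 0.254, other pairs at 0.166 or less. A block for this set, chosen after seeing the data, left 1 interaction. Without these 4 arrays 291 and 171 genes were called in KI:KO, 144 and 99 in ERRα KO against WT, and 22 interactions.

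List medians that moved were those of glucose uptake (0.12 without the 4 arrays, 0.11 to 0.23 with 1 array left out), prostaglandin enzymes (0.45 without dim genes, 0.41 without the 4 arrays, 0.27 to 0.38), chemokines (0.33 without dim genes, 0.16 to 0.22), acute-phase proteins (0.24 with array weights, 0.48 without dim genes, 0.23 without the 4 arrays, 0.21 to 0.35), complement (0.56, 0.32 without the 4 arrays, 0.29 to 0.45), glucocorticoid-responsive genes (0.62 with the mean of a gene's rows, 0.65 to 0.75), macrophage markers (0.65 to 0.82) and the intercalated disc (-0.27 to -0.18). Of 800 medians of the 50 other lists 57 moved. Uncalled values that changed sign were Erbb2 (-0.03 to 0.13 with 1 array left out, negative for ErbB2 KI replicate 3 or KI:KO replicate 1) and Kcnt2 (-0.08 without the 4 arrays and -0.02 to 0.13 with 1 array left out, negative for ErbB2 KI replicate 3).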
